A study of Arabidopsis thaliana with 6 samples.

Results

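GH9C1, GH9B6, GH9B8 and COB are 4 Arabidopsis genes whose products act on the cellulose of the plant cell wall. They were chosen by name, 3 GH9 endoglucanase genes and COB, with earlier results of these data known. Each was read by 1 probe set (a group of short probes summarised as 1 value) paired with that gene alone, of 13513 such probe sets on the array. All 4 were among the 13647 probe sets tested, which were the brightest 60% of those that are no controls. The names of the annotation, glycosyl hydrolase 9C1, 9B6 and 9B8 and COBRA, matched the description of the set.

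The values came from 6 arrays. Sorted cells (3 arrays) were protoplasts of Columbia seedling roots at 6 days after germination that had passed a fluorescence-activated cell sorter without selection, since all cells were kept. Whole roots (3 arrays) were roots of the same ecotype and age that had been harvested intact. For the last 24 hours both groups had been on medium with 0.3 mM of the iron chelator ferrozine and no ferrous sulfate, so both groups were starved of iron and an iron effect could not be read from them. The study asked how protoplasting and sorting alter transcript levels. The labels do not say whether replicates came from separate cultures, and the p-values below cover the spread among these arrays alone, which may be technical.

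Cellulose is spun as microfibrils by synthase complexes in the plasma membrane, and the direction in which the microfibrils are laid down sets the direction in which a root cell can grow. GH9 enzymes are endo-1,4-beta-glucanases, which cut glucan chains; class A members sit in a membrane, class B members are secreted, and class C members are secreted and carry an added cellulose-binding module. COBRA is a protein held at the outer face of the plasma membrane by a lipid anchor, and roots of cobra mutants swell because their microfibrils lose orientation. Protoplasts are root cells from which enzymes have digested the wall.

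Of the 4 genes, 2 changed, in opposite directions. GH9C1 fell in sorted cells, by 8.62-fold, and GH9B6 rose, by 7.05-fold. GH9B8 was higher and COB lower by less than 2-fold, and neither passed the threshold of 0.05 on the adjusted p (limma, Benjamini-Hochberg over all 13647 probe sets). Thus 1 gene rose, 1 fell and 2 did not pass, where 53.9% of all tested probe sets passed, 23.7% higher and 30.2% lower in sorted cells. With so large a share passing, that count of 2 of 4 is close to the background. The median log2 difference of the 4 genes was -0.03, against -0.16 over all tested probe sets.

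**Figure D1:**
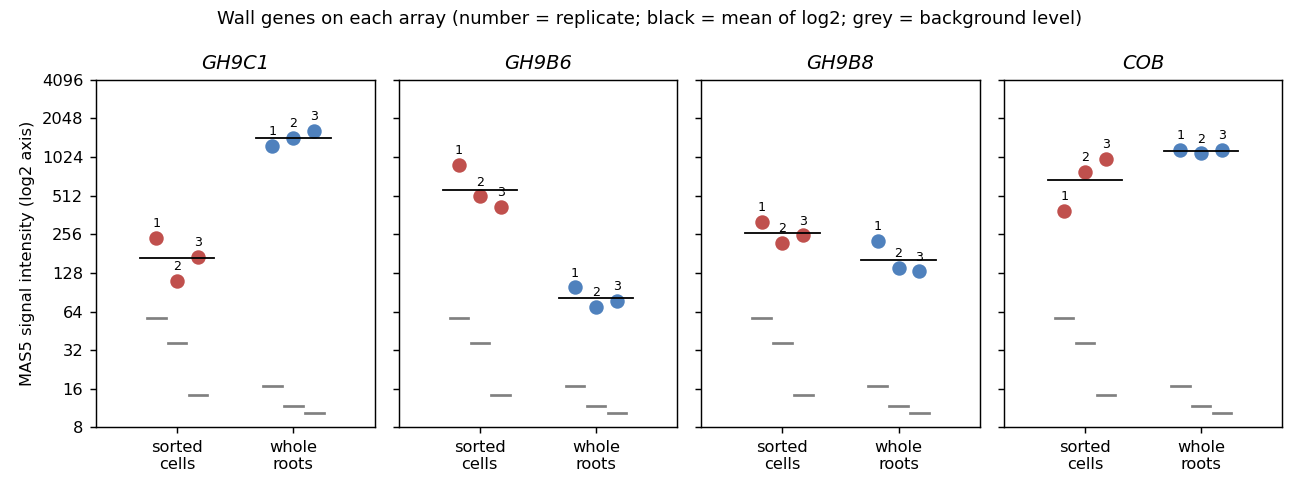
MAS5 signal intensity (log2 axis) of the 4 genes on each array, sorted cells on the left of each panel and whole roots on the right; numbers are replicates, black lines the means of log2 values and grey ticks each array's brightest bacterial control probe set. The 3 sorted-cell points lie below all whole-root points for GH9C1 and COB, above them for GH9B6, and overlap them for GH9B8.

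GH9C1 is a class C endoglucanase known from root hairs and the endodermis of growing roots. Its signal was 241, 111 and 171 in sorted-cell replicates 1, 2 and 3, against 1254, 1435 and 1625 in whole-root replicates 1, 2 and 3. The groups lay far apart, and the brightest sorted-cell array read less than the dimmest whole-root array by several fold. The means were 174 ± 65.0 in sorted cells and 1438 ± 186 in whole roots (SD, n = 3 each). The log2 difference was -3.11 (SE 0.29, 95% interval -3.76 to -2.46, limma adjusted p = 5.05e-05), or 8.62-fold lower. Only 1.37% of tested probe sets had a lower difference. In bulk samples such as these, fewer cells of a type and less RNA per cell cannot be told apart.

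The root hair markers that could be read stood beside GH9C1. Of 11 listed root hair genes, 2 had a probe set paired with 1 gene, the expansin genes EXPA18 and EXPA7 of growing hairs. The other listed genes had no such pairing in the annotation and gene table used, which does not show that the array lacks them. Both expansin genes fell, at -3.33 and -2.31 on the log2 scale (limma adjusted p = 1.36e-05 and 8.74e-05). Their summed signal was 299 to 471 in sorted cells and 2477 to 3172 in whole roots. Singly, EXPA18 read 129 to 196 and EXPA7 169 to 282 in sorted cells. On all 3 of those arrays each read above the brightest bacterial control probe set, so neither marker was lost from the sorted cells. The 1 endodermis marker with a probe set paired with 1 gene, the receptor kinase gene GSO1 of the endodermal barrier, was at 447 to 776 in sorted cells and 897 to 957 in whole roots. Its log2 difference of -0.65 was called (limma adjusted p = 0.0395), but lost the call in 8 of 17 alternatives, among them without any 1 of the whole-root arrays (0.113, 0.101 and 0.107) or sorted-cell replicate 2 (0.0947), over adjusted p from 0.0136 to 0.113. The part of root hair or endodermal cells in the fall of GH9C1 was not tested.

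GH9B6 is a class B endoglucanase. It read 885, 505 and 415 in sorted-cell replicates 1, 2 and 3, and 98.7, 69.6 and 77.1 in whole-root replicates 1, 2 and 3. All sorted-cell arrays were above all whole-root arrays, with replicate 1 the brightest of its group on both sides. The mean was 602 ± 249 in sorted cells and 81.8 ± 15.1 in whole roots (SD, n = 3 each), a log2 difference of 2.82 (SE 0.30, 95% interval 2.15 to 3.49, limma adjusted p = 9.76e-05), or 7.05-fold higher. Of all tested probe sets, 97.0% had a lower difference. The whole-root signal was low but measured: all 3 arrays read above their background level, set by 27 bacterial control probe sets as their highest reading, which lay at 10.4 to 16.8 in whole roots.

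A root cap marker was higher in sorted cells. AT1G65570, the 1 of 5 listed root cap markers with a probe set paired with 1 gene, stood at 6875, 3069 and 3523 in sorted-cell replicates 1, 2 and 3 and at 187 to 222 in whole roots. Its log2 difference was 4.38 (limma adjusted p = 1.36e-05), and sorted-cell replicate 1 was the brightest array, as for GH9B6 and also for GH9B8. Replicate 2 was dimmer than replicate 3 for AT1G65570 but brighter for GH9B6. Among sorted cells, GH9C1 and EXPA7, which fell, were brightest on replicate 1 too, whereas COB was lowest there. The part of root cap cells in the rise of GH9B6 was not tested.

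GH9B8 belongs to class B as well. Its signal was 322, 218 and 251 in sorted-cell replicates 1, 2 and 3, against 226, 140 and 131 in whole-root replicates 1, 2 and 3. The groups overlapped, because whole-root replicate 1 read slightly above sorted-cell replicate 2. The log2 difference was 0.69 (SE 0.27, 95% interval 0.09 to 1.29 before adjustment), with means of 264 ± 52.8 in sorted cells and 166 ± 52.2 in whole roots (SD, n = 3 each), and it fell just short of the threshold (limma adjusted p = 0.0513). GH9B8 passed in 9 of 17 alternatives, among them without sorted-cell replicate 2 (0.82, limma adjusted p = 0.0415) and without whole-root replicate 1 (0.94, 0.021), with an adjusted p between 0.021 and 0.182 over all of them.

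COB codes for COBRA. It read 392, 780 and 993 in sorted-cell replicates 1, 2 and 3, and 1160, 1092 and 1158 in whole-root replicates 1, 2 and 3. All sorted-cell arrays were below all whole-root arrays, but the sorted-cell values ran over a far wider range: the log2 SD was 0.70 in sorted cells and 0.05 in whole roots, against medians of 0.37 and 0.18 over all tested probe sets. Groups without overlap were common: 36.1% of tested probe sets lay lower in sorted cells on every array, and 27.9% higher. The mean was 722 ± 305 in sorted cells and 1136 ± 38.7 in whole roots (SD, n = 3 each), a log2 difference of -0.76 (SE 0.32, 95% interval -1.48 to -0.04 before adjustment, limma adjusted p = 0.0714). The size rested on sorted-cell replicate 1. Without that array it was -0.37 (limma adjusted p = 0.093), with array quality weights -0.41 (0.117), and without sorted-cell replicate 3 it passed, at -1.04 (0.0266), over adjusted p from 0.0266 to 0.156 in all alternatives.

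The order of COB among sorted cells went with a sign of RNA quality. The log2 gap between the 3′ and 5′ control probe sets of GAPDH was 5.12, 3.41 and 2.44 in sorted-cell replicates 1, 2 and 3, and 0.67, 0.69 and 0.91 in whole-root replicates 1, 2 and 3. Of 6 such control pairs, for actin, GAPDH and ubiquitin, 4 had a wider gap on every sorted-cell array than on every whole-root array. The other 2 overlapped, an actin pair at 4.85 to 5.35 in sorted cells and 4.81 to 5.73 in whole roots and a ubiquitin pair at 2.70 to 3.62 in sorted cells and 2.34 to 2.85 in whole roots. In 5 of the 6 pairs, all but that actin pair, sorted-cell replicate 1 had the widest gap of its group and replicate 3 the narrowest, and these were the arrays with the lowest and the highest COB signal. GH9B6 ran the other way, highest on sorted-cell replicate 1 and lowest on replicate 3, and GH9C1, lowest on replicate 2, followed neither order. Without sorted-cell replicate 1 the log2 difference of GH9C1 was -3.38, that of GH9B6 2.50 and that of GH9B8 0.54. Few orders are possible among 3 arrays, and the share of probe sets with the order of COB was not counted. Of the wall genes described below, FER, TUA6, GH9C2 and AT1G45688, lower in sorted cells, had that order too. So did AT5G42860, higher in sorted cells. Of these, TUA6, GH9C2 and AT1G45688 did not pass. The part of RNA quality in the levels of COB and GH9B6 was not tested.

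**Figure D2:**
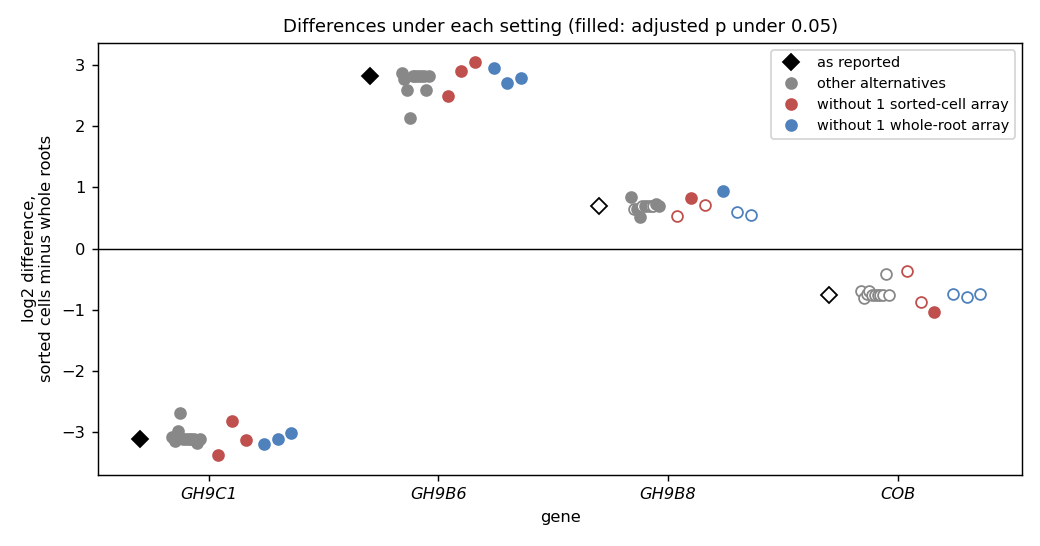
Log2 difference, sorted cells minus whole roots, of the 4 genes as reported and under each alternative setting; filled points passed at an adjusted p under 0.05. GH9C1 stays between -3.38 and -2.69 and GH9B6 between 2.13 and 3.05, all filled, whereas GH9B8 moves across the threshold between 0.52 and 0.94 and COB ranges from -1.04 to -0.37.

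Ratios between the genes within an array, which do not depend on the scaling factor of the array, were compared for all 6 pairs. The log2 ratio of GH9C1 to GH9B6 lay between -2.19 and -1.28 in sorted cells and between 3.67 and 4.40 in whole roots, a difference of -5.93. That of GH9C1 to COB was -2.81 to -0.70 in sorted cells and 0.11 to 0.49 in whole roots. The smallest shift was that of GH9B8 to COB, which lay between -1.99 and -0.28 in sorted cells and between -3.14 and -2.36 in whole roots, a difference of 1.45. The groups did not overlap in any of the 6 pairs. The pairs reuse the same 4 genes, however, and GH9C1, GH9B6 and COB did not overlap singly. Lack of overlap was common among single tested probe sets (36.1% lower and 27.9% higher in sorted cells), and its share among other ratios was not counted. Each exact two-sided permutation p was 0.1 (also 0.1 adjusted over the 6 pairs), the smallest that 3 arrays against 3 allow, so none could reach 0.05.

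The other GH9 genes tested differed less between the groups than GH9C1 and GH9B6. Since GH9C1 and GH9B6 were chosen with earlier results of these data known, the smaller differences of the others may follow from that choice. Of 22 others listed, 12 had a probe set paired with 1 gene, 6 were bright enough to be tested, and none of the 6 passed in limma, where 53.9% of all tested probe sets did, nor had an unadjusted p under 0.05. Their median log2 difference was 0.13. GH9B7, a class B gene, read 2494 ± 464 in sorted cells and 1924 ± 35.5 in whole roots (SD, n = 3 each; log2 difference 0.36, 95% interval -0.09 to 0.80, limma adjusted p = 0.152). It passed only without sorted-cell replicate 1, at 0.46 (limma adjusted p = 0.0359). All of its sorted-cell arrays read above all of its whole-root arrays, as was so for 27.9% of tested probe sets. GH9B13, also of class B, stood at 1308 ± 117 in sorted cells and 981 ± 220 in whole roots (SD, n = 3 each; log2 difference 0.44, limma adjusted p = 0.123).

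The other class C genes had smaller differences than GH9C1. GH9C2 read 192, 318 and 380 in sorted-cell replicates 1, 2 and 3 and 519, 455 and 308 in whole-root replicates 1, 2 and 3, with groups that overlapped and a log2 difference of -0.55 (95% interval -1.24 to 0.14). GH9C3 was near its whole-root level, at 88.6 to 118 in sorted cells and 82.4 to 108 in whole roots, with a log2 difference of 0.15 (95% interval -0.39 to 0.68). The log2 ratio of GH9C1 to GH9C2 was -1.52 to 0.33 in sorted cells and 1.27 to 2.40 in whole roots, and that of GH9C1 to GH9C3 was -0.08 to 1.44 in sorted cells and 3.54 to 4.30 in whole roots. Ratios of GH9B6 to the class B genes GH9B5, GH9B7, GH9B13 and GH9B17 were likewise higher in sorted cells, by 2.38 to 3.19 on the log2 scale. None of these 6 pairs overlapped between the groups, but each includes GH9C1 or GH9B6, whose own groups did not overlap. The 6 pairs were chosen after the differences of their genes had been seen, so their ratios are a description with no test.

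**Figure D3:**
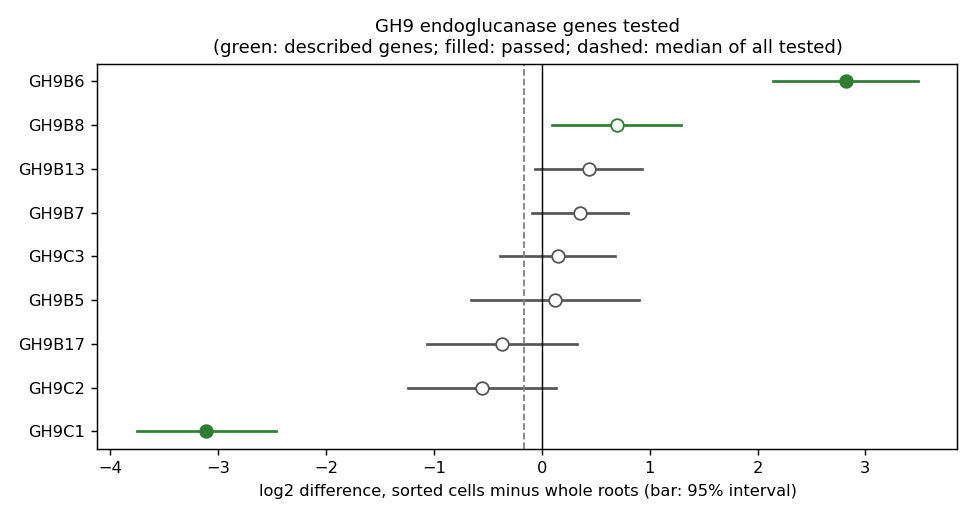
Log2 difference, sorted cells minus whole roots, with its 95% interval, for the GH9 genes tested; green marks GH9C1, GH9B6 and GH9B8, filled points passed at an adjusted p under 0.05, and the dashed line is the median of all tested probe sets, -0.16. GH9B6 and GH9C1 stand at 2.82 and -3.11, and the 6 genes in grey lie between -0.55 and 0.44.

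The GH9 genes that were too dim to be tested were GH9A3, GH9A4, GH9B11, GH9B12, GH9B16 and GH9B18. Their probe sets read 1.36 to 60.6 in sorted cells and 0.584 to 41.1 in whole roots, and the groups overlapped for each of them. GH9A3 and GH9B18 were above background on 2 of 3 sorted-cell arrays and on all 3 whole-root arrays. The other 4 were above it on at most 1 array of a group, so their differences carry no order. A further 2 GH9 probe sets were paired with several genes and were left out. The GH9 genes not listed with a probe set of their own, the COBRA-like genes and the cellulose synthase genes of the primary wall were not analysed here.

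Over the wall lists without the 4 genes, 19 of 84 entries were tested, of which 5 rose, 4 fell and 10 did not pass. That is 9 of 19, near the 53.9% of all tested probe sets that passed, 23.7% higher and 30.2% lower. Without whole-root replicate 3, 5 of the 19 passed. The median log2 difference of the 19 was 0.12, and had no settled sign: it was -0.09 without sorted-cell replicate 3, -0.01 without whole-root replicate 3 and 0.24 without whole-root replicate 1. The 19 include the 6 other GH9 genes described above. The remaining 13, of 62 entries for genes that build or orient wall polymers or sense the wall, held all 9 calls and 4 genes that did not pass, and their count was not tested against the share of all probe sets. CSLC04, a synthase of the xyloglucan backbone, rose to 1460 ± 322 in sorted cells, against 591 ± 128 in whole roots (SD, n = 3 each; log2 difference 1.30, limma adjusted p = 0.00179). CSLD2, a cellulose synthase-like gene needed for normal root hairs, fell to 618 ± 119 in sorted cells, against 1183 ± 78.9 in whole roots (log2 difference -0.95, limma adjusted p = 0.0042). GUT2, which acts in xylan synthesis of secondary walls, rose by 0.96 on the log2 scale (limma adjusted p = 0.00698).

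Of 10 listed partners of cellulose synthesis, 4 had a probe set paired with 1 gene, and the gene tables used here name them by locus only. AT5G42860 was at 458, 572 and 693 in sorted-cell replicates 1, 2 and 3 and at 303 to 375 in whole roots (log2 difference 0.75, limma adjusted p = 0.0176). AT2G41770 was at 426 to 663 in sorted cells and at 768 to 932 in whole roots (log2 difference -0.77, limma adjusted p = 0.0174). Both calls were lost in some alternatives: the limma adjusted p of AT5G42860 was 0.0515 with median centring, 0.055 without sorted-cell replicate 3, and 0.0628 and 0.0813 without whole-root replicates 2 and 3, and that of AT2G41770 was 0.0652 and 0.0735 without whole-root replicates 1 and 3. AT1G45688 and AT3G57420 did not pass, at -0.11 and -0.18 on the log2 scale.

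Cortical microtubules guide the synthase complexes, and 4 of 11 listed microtubule genes were tested. SPR1, whose protein binds microtubules and keeps root growth straight, rose to 2653 ± 467 in sorted cells, against 1137 ± 80.5 in whole roots (SD, n = 3 each; log2 difference 1.21, limma adjusted p = 0.00104). The tubulin gene TUB5 fell, at 406, 998 and 816 in sorted-cell replicates 1, 2 and 3 and 1206 to 1518 in whole roots (log2 difference -0.99, limma adjusted p = 0.027), and was not called without whole-root replicate 1, 2 or 3 (0.077, 0.0887 and 0.0509). Without sorted-cell replicate 1 its difference was -0.61. TUA6, at 1203, 2956 and 3066 in sorted-cell replicates 1, 2 and 3 and 3212 to 4448 in whole roots, did not pass (-0.72, limma adjusted p = 0.109), but did with quantile normalization (-1.09, 0.0185). Without sorted-cell replicate 1 the difference of TUA6 was -0.28 (limma adjusted p = 0.192). Like COB, TUB5 and TUA6 were lowest on sorted-cell replicate 1. TUB6 did not pass (0.35, limma adjusted p = 0.237), though among sorted cells it was lowest on that replicate too. It read 986, 1645 and 1146 in sorted-cell replicates 1, 2 and 3 and 882 to 1103 in whole roots.

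Both receptor kinase genes tested, of 5 listed for sensing of the wall, changed, in opposite directions. FER, which codes for FERONIA, a receptor of growth-restraining peptides that also acts in root hairs, fell to 411, 525 and 977 in sorted-cell replicates 1, 2 and 3, against 1932 to 2233 in whole roots (log2 difference -1.79, limma adjusted p = 0.00115). THE1, which codes for THESEUS1 and is known for restraining growth when cellulose is short, rose to 1175 to 2080 in sorted cells, against 718 to 1064 in whole roots (log2 difference 1.00, limma adjusted p = 0.0119). THE1 was not called without whole-root replicate 2 or 3 (0.0556 and 0.0519).

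**Figure D4:**
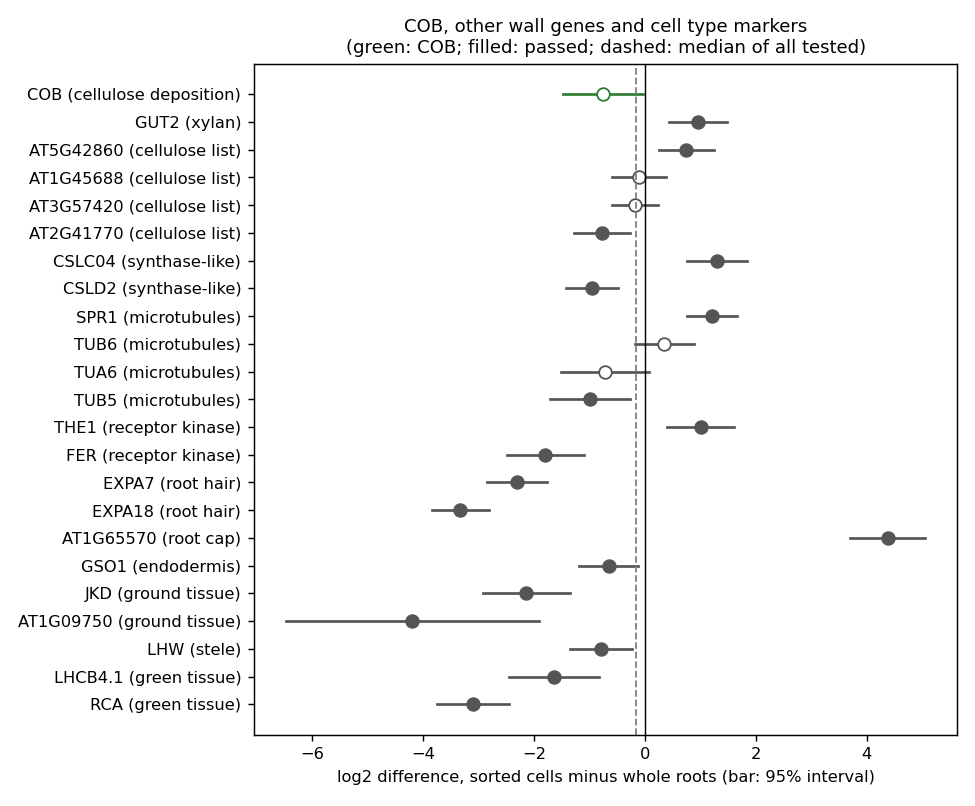
Log2 difference, sorted cells minus whole roots, with its 95% interval, for COB (green), the tested genes of the other wall lists and the tested cell type markers; filled points passed at an adjusted p under 0.05, and the dashed line is the median of all tested probe sets. CSLC04, SPR1, THE1, GUT2 and AT5G42860 lie to the right of 0, and CSLD2, FER, TUB5 and AT2G41770 to the left.

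Markers of further tissues were mostly lower in sorted cells. The ground tissue markers JKD and AT1G09750 fell (-2.13 and -4.19 on the log2 scale, AT1G09750 at -2.74 without sorted-cell replicate 1). Each was above background on 2 of 3 sorted-cell arrays, and with 64 added before the log the differences were -0.97 for JKD and -1.93 for AT1G09750. The third ground tissue marker, AT1G62500, was too dim to be tested, at 21.9 ± 5.80 in sorted cells and 18.2 ± 5.73 in whole roots (SD, n = 3 each; log2 difference 0.29). The summed signal of the 3 markers was 48.0 to 110 in sorted cells and 401 to 452 in whole roots. The stele marker LHW was lower (-0.79, limma adjusted p = 0.0237), and was not called with quantile normalization (0.0666) or without sorted-cell replicate 3 (0.0787), whole-root replicate 1 (0.0994) or whole-root replicate 2 (0.0566). The 2 green tissue markers with a probe set paired with 1 gene, RCA and LHCB4.1, summed to 68.2 to 141 in sorted cells and 503 to 569 in whole roots. Listed markers of non-hair epidermis and of the root tip meristem were not analysed here.

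Over the 6 arrays, the profile of each gene was set against those of 7357 other tested probe sets paired with 1 gene, by the root mean square difference of log2 values after each probe set's own mean had been subtracted. The nearest genes share the shape of the gene because they were chosen for it, so the shared shapes below are a description with no test. Nearest to GH9C1 were AT2G28990 (0.12), AT2G46220 (0.13) and PMEPCRF, annotated as a pectin methylesterase (0.15). The root hair expansin EXPA18 was at place 9 (0.22) and EXPA7 at place 66 (0.41) in the same order. GH9C1, AT2G46220 and PMEPCRF shared a drop on all sorted-cell arrays that was deepest on replicate 2. AT2G28990 was above background on 1 of 3 sorted-cell arrays, so the order of its sorted-cell values and its nearness to GH9C1 rest on dim readings. Nearest to GH9B6 were AT3G48185 (0.13), AT1G24600 (0.13) and AT4G14380 (0.17), which shared its high sorted-cell values with a peak on replicate 1.

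Nearest to GH9B8 were AT5G02000 (0.12), AT5G48900 (0.13) and AT2G16660 (0.14), and of these AT5G48900 passed, at 0.82 on the log2 scale (limma adjusted p = 0.0108). Nearest to COB were AT5G10920 (0.08), AT5G60980 (0.09) and AT4G12640 (0.10), whose log2 differences were -0.67, -0.70 and -0.83 and did not pass (limma adjusted p = 0.087, 0.0987 and 0.0558). Their lowest array, like that of COB, was sorted-cell replicate 1, which follows from their choice by nearness. None of the 4 genes was near another. The smallest value among them was 0.94, for GH9B8 and COB, whose differences were small and opposite in direction. In place order that pair was far apart: COB was at place 5500 for GH9B8, and GH9B8 at place 5239 for COB. GH9B8 was at place 1641 for GH9B6 (1.09), and COB at place 2277 for GH9C1 (1.35).

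**Figure D5:**
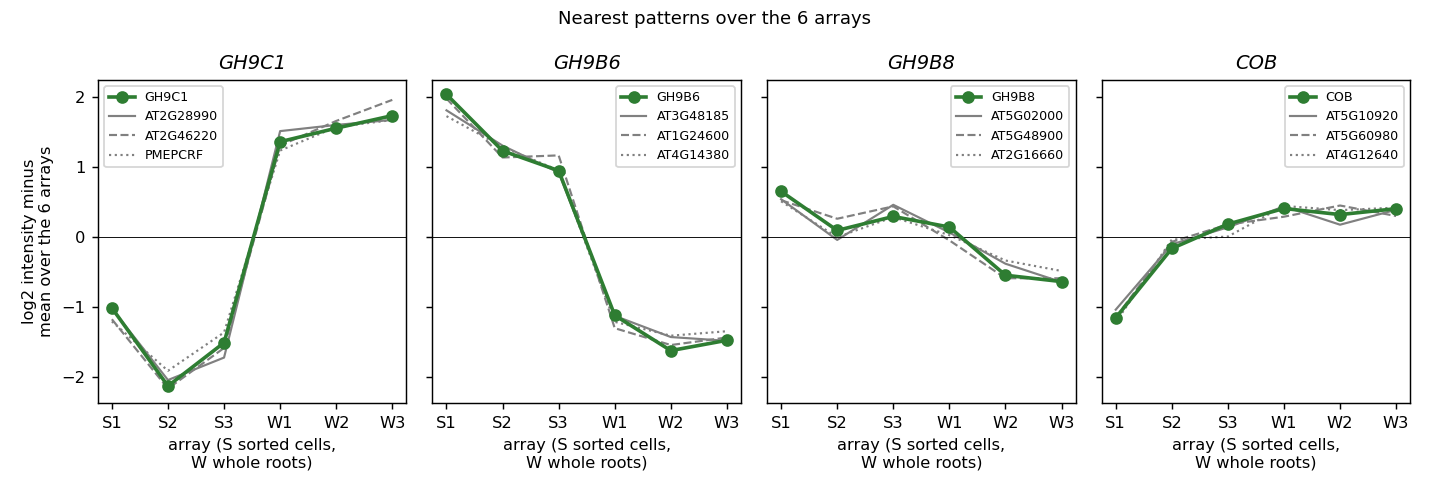
Log2 intensity minus its mean over the 6 arrays for each of the 4 genes (green) and the 3 probe sets with the smallest root mean square difference from it (grey), with sorted-cell replicates 1 to 3 as S1 to S3 and whole-root replicates 1 to 3 as W1 to W3. The COB panel shows a dip on S1, shared by its 3 neighbours, which were chosen for nearness on these arrays. The GH9C1 panel shows a minimum on S2. Among the neighbours of GH9C1, AT2G28990 was above background on 1 of 3 sorted-cell arrays.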

How the data were processed

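Per the labels' protocols, RNA was amplified in 2 cycles and biotin-labelled, and each of the 6 samples had its own Affymetrix array. The deposited values are signal intensities for which the submitters' processing notes name MAS5; the sources used here give no version, scaling target or detection calls. Array means after trimming 2% at each end were 250.02 or 250.03, so the values were used as deposited. The number of arrays limits the precision.

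Names came from the platform annotation and a TAIR10.1 gene table, which held 13436 of the 13513. Left out were controls and, by mean log2 over the 6 arrays, the dimmest 40% of all else. The fit on log2 intensities used lmFit and eBayes (variance trend) of limma 3.58.1, under R 4.3.3, for sorted cells minus whole roots. Adjusted p-values are Benjamini-Hochberg over 13647 probe sets. The fit was also run on simulated data with a far smaller share of changed probe sets than was called here. That run does not test it in the setting of these data. Python 3.11.15 with scipy 1.17.1, numpy 2.4.6, pandas 2.3.3 and matplotlib 3.10.9 gave all else.

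The genes, lists and tests were chosen with earlier results of these data known. Named were the 4 genes, at most 4 called and 2 uncalled genes of a list (by largest difference and highest mean), and 3 nearest patterns per gene; ratios to other GH9 genes were added after values were seen, and the GH9 genes beyond that rule (GH9B5, GH9B17, GH9C2, GH9C3 and the dim ones) and AT1G62500 were named after their values were seen. Alternatives covered 2 other normalizations (quantile, median), 16 or 64 added before the log, no filter or one of 60%, 3 other variance or weight models, a replicate block, single arrays left out, a 2-fold threshold and, added after seeing the data, a filter on mean linear intensity.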

Additional observations from a re-analysis of the deposited data

How the results depend on the processing

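GH9C1 (-3.38 to -2.69 on the log2 scale) and GH9B6 (2.13 to 3.05) kept direction and call in all 17 alternatives. GH9B8 passed at 0.85 with quantile normalization, 0.64 and 0.52 with offsets of 16 and 64, 0.69 with the dimmest 60% left out or with the filter on mean linear intensity, and 0.73 with array quality weights; leaving out single arrays gave 0.54 to 0.94, and COB -1.04 to -0.37. With the replicate block GH9B8 passed at 0.69 (limma adjusted p = 0.0423), and 6599 probe sets were called, against 7360 without it. Same-numbered arrays deviated from their group means at correlations of -0.30, -0.16 and -0.05, so the numbers are not taken as pairs. Calls over all probe sets ran from 5186 (also at least 2-fold) to 8368 (array quality weights). When single arrays were left out, they ran from 5738 to 8065, and those of the wall lists, 9 of 19, from 5 to 10. The log2 ratio of GH9C1 to GH9B6 differed by -4.82 and that of GH9B6 to GH9B8 by 1.61 with an offset of 64. Leaving out single arrays gave -6.18 to -5.72 for GH9C1 to GH9B6, -4.14 to -3.57 for GH9C1 to GH9B8, -3.01 to -1.95 for GH9C1 to COB, 1.96 to 2.33 for GH9B6 to GH9B8, 2.87 to 4.09 for GH9B6 to COB and 0.91 to 1.76 for GH9B8 to COB. AT3G57420 turned to 0.0068 with quantile normalization. AT1G45688 read 610, 874 and 930 in sorted-cell replicates 1, 2 and 3 and 849 to 865 in whole roots. Its difference was -0.23 to 0.074 without single arrays, highest without sorted-cell replicate 1, its lowest array. With array quality weights it was 0.031. The cause of the low reading on that array was not tested. Of 24 named list genes and markers, 14 kept direction and side of the threshold in every alternative run. Signal over background limits the dim sorted-cell values of GH9B5, JKD, AT1G09750, RCA and LHCB4.1, each with 2 of 3 arrays above it, and of AT2G28990, with 1 of 3.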
